A study of Homo sapiens with 6 samples.

Results

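Among the genes that NB4 cells expressed before treatment, 119 were left at 12.5% or less of their level after 24 h with 10 µM maltonis. They were selected on the measured values themselves: read counts were divided by each library's total to give CPM, counts in proportion to a total of 1000000, symbols with a mean of at least 5 CPM in the 3 not treated libraries were taken, and those whose mean in the 3 maltonis libraries was an eighth of that mean or less were kept. Of 23368 gene symbols listed, 9899 reached 5 CPM, and 1.26% of these met the ratio. Of them, 6 genes were set aside, the metallothioneins MT1G, MT1X and MT2A together with COQ3, ETV4 and VASP, which left the 119. Because the same 6 libraries chose the genes and measured them, their decreases are given as a description, without a test, and the share of 1.26% is likewise only the outcome of the rule.

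The NB4 cell line was established from a human acute promyelocytic leukemia and carries the PML/RARα fusion. Maltonis is a synthetic maltol-derived hydroxypyrone that the study examined for its effects on histone marks and transcription. RNA from 3 biological replicates of not treated cells and 3 of maltonis-treated cells was made into stranded total RNA libraries and sequenced, and the untreated cells served as the control. All 6 libraries came from this single line at the same time point, so the values describe NB4 cells at this dose and time.

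A steady transcript level reflects the balance of synthesis and decay. After transcription of a gene stops, its mRNA declines at a rate set by its own half-life, so within a given period short-lived transcripts can reach low levels while long-lived ones persist. Promoters of broadly expressed genes usually lie in CpG islands and bind general activators such as SP1, whereas genes of more restricted use often depend on particular receptors or lineage factors. RNA level alone does not separate synthesis from decay.

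Library totals ran from 18492154 to 38205483 counts, so that 3 counts were worth 0.0785 to 0.162 CPM. The lowest count of any of the 119 genes in a not treated library was 86, while counts in the maltonis libraries ranged from 2 to 2068. All 8 myeloid markers examined were detected in every library, and they went in both directions. The promyelocytic marker MPO was abundant, at 12485 to 14827 CPM without treatment and 7592 to 7834 CPM with maltonis. CD33, SPI1 and CEBPE were also lower with maltonis. CTSG went up from a range of 99.2 to 109 CPM to a range of 560 to 603 CPM, and LYZ, PRTN3 and AZU1 were higher too. Of 8 markers of other cell types, MS4A1 and HBB were among those at 0 throughout. CD3D lay at 41.2 to 43.4 CPM in not treated and 15.6 to 16.4 CPM in treated cells, EPCAM went from a range of 15.2 to 17.1 CPM to a range of 10.7 to 13.3 CPM, and PECAM1 from 7.27 to 12.9 CPM up to 16.5 to 21.1 CPM. The part of these marker differences in the results was not tested.

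Reads of all 119 genes remained after maltonis, which does not show whether their transcription continued. No gene was at 0 in any library, 4 genes had a maltonis library with 3 counts or fewer (SLC16A14, IRAK1BP1, BATF3 and MMP15), and 96 kept more than 10 counts in every maltonis library. The share of the not treated level that was left ranged from 1.38% for NEK3 to 12.4% for HIPK2, with a median of 8.71%, whereas the median over all 9899 expressed symbols was 102%. At most 5% was left for 21 genes, between 5 and 10% for 64 and more than 10% for 34. Summed over the 119 genes, 0.492 to 0.509% of each not treated library and 0.0460 to 0.0476% of each maltonis library fell on them. The gap between these sums is set by the selection rule.

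These were mostly genes of moderate expression. Their not treated means ran from 5.03 CPM (C3orf39) to 584 CPM (SSRP1), with a median of 24.5 CPM against 48.8 CPM over all expressed symbols. Of the 119, 20 were below 10 CPM, 77 between 10 and 50 CPM, 15 between 50 and 100 CPM and 7 at or above 100 CPM. Apart from the pseudogene GOLGA8DP, all were protein coding. Their median exonic length was 4617 bases and their median genomic span 29699 bases, beside 5209 and 32425 bases for the expressed symbols with an annotated gene.

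Agreement among the not treated replicates was close for most of the genes. The median coefficient of variation across the not treated libraries was 7.60%, compared with 6.88% over all expressed symbols, and 11 genes exceeded 20%. It was not summarised for the maltonis libraries, where relative spread was wide in some genes and narrow in others. C17orf75 had 0.487, 1.30 and 0.626 CPM there and C6orf162 0.324, 1.09 and 0.736 CPM, while TSEN15 had 2.70, 2.79 and 2.65 CPM. When each maltonis library was set against the not treated library with the same replicate number, 100 of the 119 genes were at or under 12.5% in every pair. The same libraries selected the genes, so this number follows in large part from the rule. Not treated replicate 1 was the highest of its group for 77 genes (64.7%), and it was the highest for 53.4% of all expressed symbols. The library names also carry a number that both replicate 1 libraries share and that differs from the number shared by replicates 2 and 3. Within replicate 1 the log2 ratios of the 119 genes ran from −6.26 to −2.65, with a median of −3.56, and within replicates 2 and 3 from −6.18 to −2.85, with a median of −3.52.

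At the lower edge of the selection stood HIPK2 (8.06-fold), HMGA2 (8.10-fold) and PDE4A (8.13-fold). Just outside were ACP6 (7.96-fold), CELSR2 (7.91-fold) and ZNF32 (7.89-fold). HIPK2, a nuclear kinase of stress signalling, had 119, 119 and 174 CPM in not treated replicates 1 to 3 and 18.9, 16.7 and 15.5 CPM in maltonis replicates 1 to 3. Replicate 3 was thus higher than the other not treated libraries, and in the replicate 1 pair alone 15.9% of HIPK2 was left.

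The largest reduction was that of NEK3, a NIMA-related serine/threonine kinase. It had 27.5, 26.6 and 27.3 CPM in not treated replicates 1 to 3 and 0.379, 0.341 and 0.405 CPM with maltonis, given in the same replicate order here and for every gene that follows. The log2 fold change was −6.29 (SE 0.121). TTC5, a tetratricopeptide protein that triggers decay of tubulin mRNA when free tubulin is abundant, followed with 22.3, 22.1 and 23.0 CPM against 0.595, 0.341 and 0.331 CPM. In both genes the not treated libraries differed by less than 5% while the treated ones held a few reads each. METTL10, now named EEF1AKMT2, methylates a lysine of the elongation factor eEF1A. It had 35.4, 38.4 and 36.5 CPM and then 0.811, 0.621 and 0.994 CPM, and 2.20% was left. FGFR1, a receptor tyrosine kinase for fibroblast growth factors, had 48.6, 44.9 and 42.5 CPM without treatment and 1.03, 1.24 and 0.736 CPM with it. BOLA3, which helps to deliver iron-sulfur clusters inside mitochondria, had 31.9, 28.3 and 28 CPM and then 0.703, 0.652 and 0.70 CPM. These 5 genes were the only members of the set left at 2.5% or less.

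**Figure D1:**
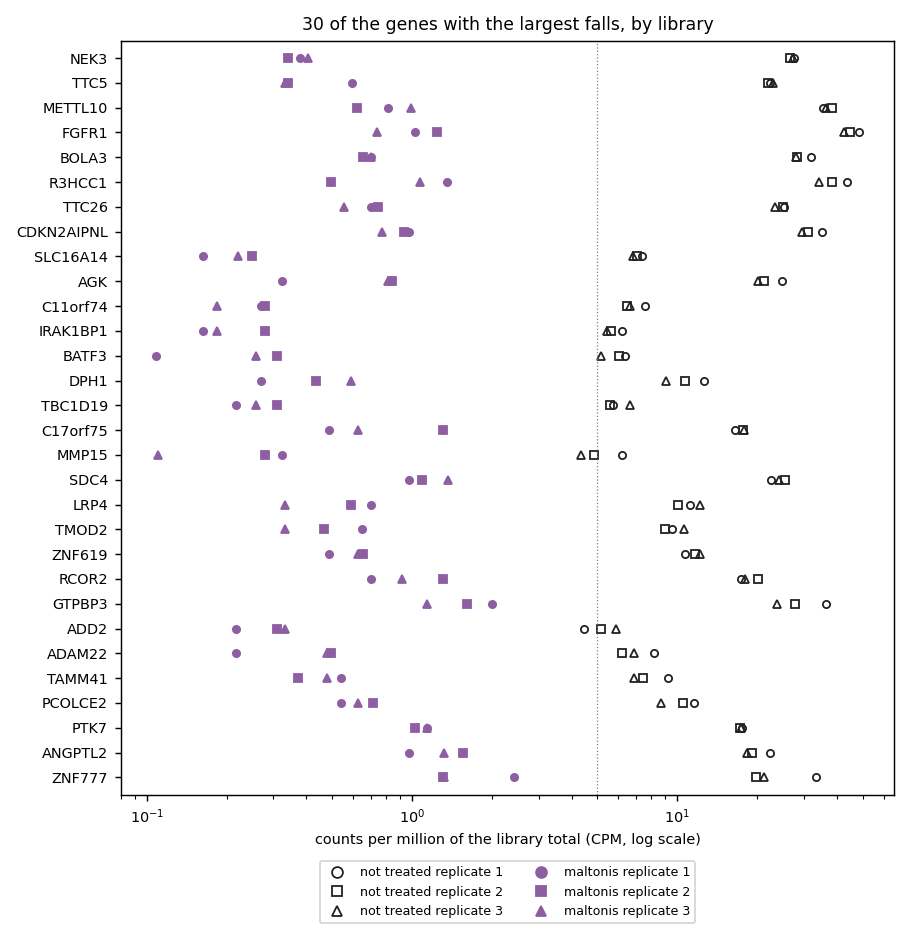
CPM on a log axis for 30 of the genes with the smallest shares left, with open black symbols for the 3 not treated libraries and filled purple symbols for the 3 maltonis libraries, and circles, squares and triangles for replicates 1, 2 and 3. The dotted line is the 5 CPM minimum on the not treated mean. For NEK3 at the top the groups sit near 27 and 0.375 CPM. The separation of the groups in all 30 genes follows from the selection.

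Promoter sequence is shown for 3 of these genes because they had among the smallest shares left and yet differ in base composition. The windows are from RefSeq on GRCh38.p14, run from 250 bases before to 50 bases after the annotated start, and are written 5′ to 3′ on the gene's own strand. All 3 genes lie on the minus strand, NEK3 at chr13:52159548-52159847, TTC5 at chr14:20305902-20306201 and BOLA3 at chr2:74147863-74148162. Capitals mark the SP/KLF motif GGGCGG in either orientation and the TATA motif TATAAA.
NEK3: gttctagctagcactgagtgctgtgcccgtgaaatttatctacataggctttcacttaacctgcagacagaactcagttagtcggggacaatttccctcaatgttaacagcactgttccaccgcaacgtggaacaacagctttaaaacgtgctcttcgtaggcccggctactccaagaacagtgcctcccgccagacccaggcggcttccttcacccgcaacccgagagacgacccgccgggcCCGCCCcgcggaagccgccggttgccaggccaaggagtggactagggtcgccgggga
TTC5: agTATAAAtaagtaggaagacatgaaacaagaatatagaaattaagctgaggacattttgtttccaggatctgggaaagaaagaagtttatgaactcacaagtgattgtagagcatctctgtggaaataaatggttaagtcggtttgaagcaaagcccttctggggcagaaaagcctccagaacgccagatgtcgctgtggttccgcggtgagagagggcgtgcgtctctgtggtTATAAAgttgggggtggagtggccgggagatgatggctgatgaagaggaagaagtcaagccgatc
BOLA3: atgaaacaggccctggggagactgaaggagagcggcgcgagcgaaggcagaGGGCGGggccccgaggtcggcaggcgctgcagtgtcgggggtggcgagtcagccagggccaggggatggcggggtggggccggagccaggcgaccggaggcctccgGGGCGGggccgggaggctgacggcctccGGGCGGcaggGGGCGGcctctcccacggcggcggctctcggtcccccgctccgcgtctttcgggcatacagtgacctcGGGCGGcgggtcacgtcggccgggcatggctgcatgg
BOLA3 had 5 copies of the SP/KLF motif, a GC content of 76.3% and 35 CpG dinucleotides. TTC5 had none of that motif, 2 TATA motifs, 45.7% GC and 9 CpG dinucleotides, and NEK3 lay between them with 1 SP/KLF motif, 58.3% GC and 21 CpG dinucleotides. These genes had 1.88 (TTC5), 2.33 (BOLA3) and 1.38% (NEK3) of their level left.

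A window was matched for 92 of the 119 genes, and 9 short motifs were searched in them on both strands. Base composition was close to that of the expressed symbols: the median GC content was 66% in the 92 windows, 65.3% in 8062 windows of expressed symbols and 58.3% in all 27305 windows, and the median number of CpG dinucleotides was 26, 27 and 14. The SP/KLF motif GGGCGG was in 63.0% of the 92 windows, 71.7% of the expressed and 44.6% of all windows. The metal response motif TGCGCNC, recognised by MTF1, was in 30.4, 32.4 and 20%. Several motifs of broadly expressed genes were present in a smaller share. The ETS motif CCGGAAGT occurred in 1 of 92 windows (1.09%) against 10.4% of expressed and 4.44% of all windows. For NRF1, a regulator of nuclear genes for mitochondrial proteins, the motif GCGCATGC occurred in 0 of 92 windows against 6.41 and 3.27%. The E-box CACGTG was in 3.26% against 10.9 and 7.43%, and CCAAT, the box bound by NF-Y, in 18.5% against 38.2 and 35.7%. The YY1 motif AAGATGGCG was in 1.09% against 4.73 and 1.85%, and the cyclic AMP response motif TGACGTCA in 1.09% against 3.65 and 1.98%. TATAAA was in 8.70% against 5.16 and 12%. GCGCATGC and TGCGCNC can overlap in part. These shares describe the letters in the windows and were not tested, and they say nothing of whether a factor was bound.

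**Figure D2:**
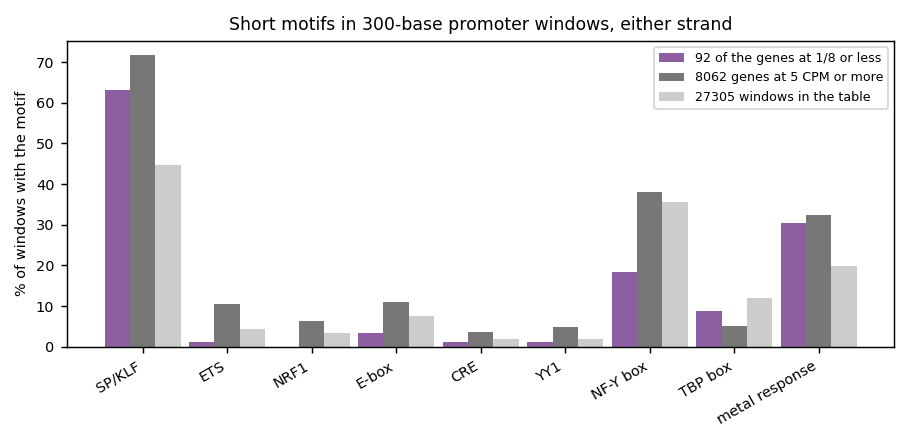
Share of promoter windows of 300 bases that hold each of 9 short motifs on either strand, in % from 0, with purple bars for the 92 matched genes, dark grey for 8062 expressed symbols and light grey for all 27305 windows; the NF-Y box is CCAAT and the TBP box is TATAAA. The purple bar is shorter than the dark grey bar for every motif except the TBP box, and it is 0 for NRF1.

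The other genes are described by role, with roles assigned by hand from general knowledge. Kinases, receptors and signalling proteins formed the largest group, with 18 genes and a median of 8.39% left. Besides NEK3 and FGFR1 it included CSK, which phosphorylates SRC family kinases at their inhibitory tail tyrosine, and its relative MATK. CSK had 111, 103 and 103 CPM without and 10.3, 8.07 and 8.87 CPM with maltonis. MATK had 103, 80.7 and 69.8 CPM and then 6.44, 7.01 and 6.19 CPM. Both of these negative regulators of SRC family kinases were therefore left below 9%, although MATK varied more among the not treated libraries. The receptor-like proteins LRP4, PTK7, GPR124 (ADGRA2) and RTN4R kept between 4.86 and 12.3%. IRAK1BP1, a binding partner of the interleukin receptor kinase IRAK1, was weakly expressed, with 6.19, 5.63 and 5.45 CPM and then 0.162, 0.279 and 0.184 CPM. The cyclin-dependent kinase inhibitor CDKN1A had 22.2, 19.4 and 19.7 CPM without treatment and 2.22, 1.33 and 1.62 CPM with it. The remaining genes of this group were IER3, DAB2IP, AMOTL1, RASGRF1, BCAR1, PBK, HIPK2 and PDE4A, with 7.34 to 12.4% left.

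Chromatin and transcription genes numbered 17, with a median of 9.74% left, and held the most abundant member of the set. SSRP1, the HMG-box subunit of the histone chaperone FACT, had 557, 598 and 597 CPM in not treated cells and 63.4, 63.9 and 60.9 CPM with maltonis. RCOR2, a scaffold of LSD1-containing corepressor complexes, had 17.3, 20.3 and 18 CPM and then 0.703, 1.30 and 0.920 CPM. HDAC8, a class I histone deacetylase, had 40.4, 40.1 and 38.7 CPM and then 2.92, 4.34 and 4.34 CPM. CBX6, a Polycomb protein with a chromodomain, kept 11.7%. MNAT1, which assembles the CDK-activating kinase of the general transcription factor TFIIH, had 41.9, 38.1 and 38.6 CPM against 4.65, 3.48 and 3.72 CPM. GTF2H4, a core subunit of TFIIH, had 25.1, 19.8 and 17.9 CPM against 2.92, 2.20 and 2.10 CPM. The leucine zipper factor BATF3, known from dendritic cell development, kept 3.86% and was at 2 to 10 counts per maltonis library. The homeodomain proteins LHX6 and PITX1 kept 7.50 and 8.16%, and the architectural protein HMGA2 12.3%. The zinc finger genes ZNF619, ZNF777, ZNF569, ZBTB39 and ZGPAT kept 5.11 to 11.1%, and MINA (RIOX2), a ribosomal oxygenase, and RAD54L2, a helicase of the SNF2 family, kept 10.8 and 9.33%.

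RNA processing and translation was the role with the smallest median share left, 5.57% over 10 genes. R3HCC1, a protein with an R3H domain, had 43.7, 38.4 and 34.3 CPM without treatment and 1.35, 0.496 and 1.07 CPM with it. CDKN2AIPNL, a small relative of the RNA exonuclease-binding protein CDKN2AIP, had 35.0, 31.1 and 29.6 CPM and then 0.973, 0.931 and 0.773 CPM. DPH1, which takes part in the opening step of diphthamide synthesis on elongation factor EEF2, had 12.6, 10.7 and 9.05 CPM and then 0.270, 0.434 and 0.589 CPM. With TTC5 and METTL10, they were the 5 genes of this role with at most 5% left. TSEN15, a subunit of the tRNA splicing endonuclease, had 38.4, 37.2 and 38.3 CPM against 2.70, 2.79 and 2.65 CPM. NLE1, an assembly factor of the large ribosomal subunit, had 96.5, 88.7 and 83 CPM against 7.35, 7.29 and 7.25 CPM. NUP205, a scaffold of the inner ring of the nuclear pore, was the next most abundant gene of the set after SSRP1, with 540, 524 and 528 CPM and then 61.0, 64.2 and 66.3 CPM. ALKBH8, which modifies the wobble base of tRNA, and the decapping cofactor DCP1B kept 9.69 and 9.95%.

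Genes of mitochondrial proteins numbered 15, with a median of 8.71% left. AGK, a lipid kinase that is also a subunit of the TIM22 import complex, had 24.8, 21.3 and 20.1 CPM and then 0.324, 0.838 and 0.810 CPM, so that maltonis replicate 1 was below the other 2. TAMM41, an enzyme of cardiolipin synthesis, kept 5.92%. Translation inside mitochondria was represented by 5 genes. MRPS2, of the small mitoribosomal subunit, had 90.6, 90.5 and 79.8 CPM and then 8.92, 5.62 and 4.60 CPM, and MRPL54, of the large subunit, kept 7.85%. GTPBP3, a tRNA-modifying GTPase, had 36.5, 27.8 and 23.7 CPM against 2.0, 1.61 and 1.14 CPM. ERAL1, a chaperone of mitochondrial ribosomal RNA, kept 11.9%, and TACO1, a translational activator of COX1, kept 9.07%. Respiratory chain assembly factors made up a further group. C9orf123 (DMAC1), for complex I, had 141, 128 and 122 CPM and then 11.8, 12.7 and 13.3 CPM. C7orf44 (COA1) had 71.1, 67.0 and 70.0 CPM and then 6.54, 8.19 and 7.84 CPM. ATPAF1, for ATP synthase, had 44.9, 50.1 and 49.9 CPM and then 4.76, 4.25 and 4.86 CPM, and COX16, for cytochrome oxidase, kept 10.2%. BCAT2, the mitochondrial branched-chain aminotransferase, had 39.1, 33.7 and 32.5 CPM and then 4.76, 3.57 and 3.68 CPM. DNAJC15, a cochaperone of the import motor, and TMEM242 kept 7.48 and 8.71%.

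Cilium and microtubule genes numbered 10, with a median of 9.83% left. TTC26 (IFT56), a subunit of the intraflagellar transport B complex, had 25.3, 25.0 and 23.3 CPM and then 0.703, 0.745 and 0.552 CPM. C11orf74 (IFTAP), which binds the intraflagellar transport machinery, had 7.53, 6.47 and 6.61 CPM and then 0.270, 0.279 and 0.184 CPM. TRAF3IP1 (IFT54) had 8.77, 14.3 and 14.5 CPM and then 1.30, 1.02 and 1.4 CPM, with not treated replicate 1 below the other 2. TMEM231 and CEP290, of the ciliary transition zone, kept 6.86 and 11.5%, and BBS5, a BBSome subunit, 11.1%. TUBA1A, an alpha tubulin, had 57.8, 56.4 and 57.7 CPM against 5.25, 5.77 and 5.74 CPM. The motor subunits KIF3C and KLC2 and the microtubule binder EML2 kept 8.78, 12 and 11.8%.

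Membrane traffic and organelle genes numbered 13, with a median of 9.47% left. EI24, an endoplasmic reticulum protein of autophagy, had 118, 110 and 114 CPM and then 10.0, 10.2 and 9.43 CPM. CHMP6, an ESCRT-III subunit, had 33.2, 30 and 27.4 CPM and then 2.27, 3.26 and 3.06 CPM. COMMD7, of the COMMD family that works with the Commander complex, had 27.5, 46.8 and 45.0 CPM and then 3.41, 4.72 and 4.31 CPM. Not treated replicate 1 was again the lowest of its group. C17orf75, a Golgi protein, and the TBC domain protein TBC1D19 kept 4.63 and 4.38%. FLOT1, MTMR1, TEX261, ATP13A2, MYO5A, GRASP (TAMALIN), PEX13 and RAB3GAP1 kept 7.4 to 12.2%.

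Glycan and proteoglycan genes numbered 8, with a median of 7.80% left. C3orf39 (POMGNT2), which extends the O-mannose of alpha-dystroglycan, was the gene nearest the expression minimum, with 6.65, 4.79 and 3.65 CPM and then 0.324, 0.434 and 0.295 CPM. TMTC3, an O-mannosyltransferase of cadherins, had 47.0, 44.8 and 44.5 CPM and then 4.65, 4.93 and 4.60 CPM. B4GALT7, which adds a galactose of the proteoglycan linker, had 23.7, 19.8 and 18 CPM and then 2.43, 2.20 and 1.69 CPM. The heparan sulfate proteoglycan SDC4 kept 4.74%. The fucosyltransferase FUT1 and the sulfotransferases CHST2 and CHST13 kept 7.25, 8.35 and 10.4%.

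Secreted and extracellular proteins numbered 10, with a median of 7.86% left. The metalloproteinases MMP15 and ADAMTS15 kept 4.65 and 8.47%, the ADAM family protein ADAM22, a receptor for LGI proteins, 5.61%, and the serine protease HTRA3 8.79%. The chemokine CCL3 had 16.5, 13.8 and 12.9 CPM and then 1.14, 1.15 and 0.847 CPM. The growth factor BMP2 had 21.7, 20.8 and 18.2 CPM and then 1.89, 2.05 and 2.14 CPM. PCOLCE2, ANGPTL2, PROK2 and MFAP4 kept 6.10 to 11.2%. Metabolism and transport held 6 genes with a median of 9.66%. CYP51A1, the sterol demethylase that acts on lanosterol, had 193, 192 and 189 CPM and then 17.9, 18.7 and 18.5 CPM, so the libraries of each group lay close together. SLC16A14, an orphan member of the monocarboxylate transporter family, had 7.38, 7.04 and 6.82 CPM and then 0.162, 0.248 and 0.221 CPM. NAT8L, PRPSAP1, MMACHC and ABCC4 kept 7.66 to 10.9%. The 12 genes without a common role, TMOD2, ADD2, C6orf162 (SMIM8), FAM189B (ENTREP3), GOLGA8DP, SEL1L3, GLB1L2, LEPREL4 (P3H4), ANKRD13B, KCTD6, ASB13 and UBE2D4, kept 4.94 to 11.7%, with a median of 9.16%. Copies of the GOLGA8 family are nearly identical, so the reads of GOLGA8DP are uncertain.

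**Figure D3:**
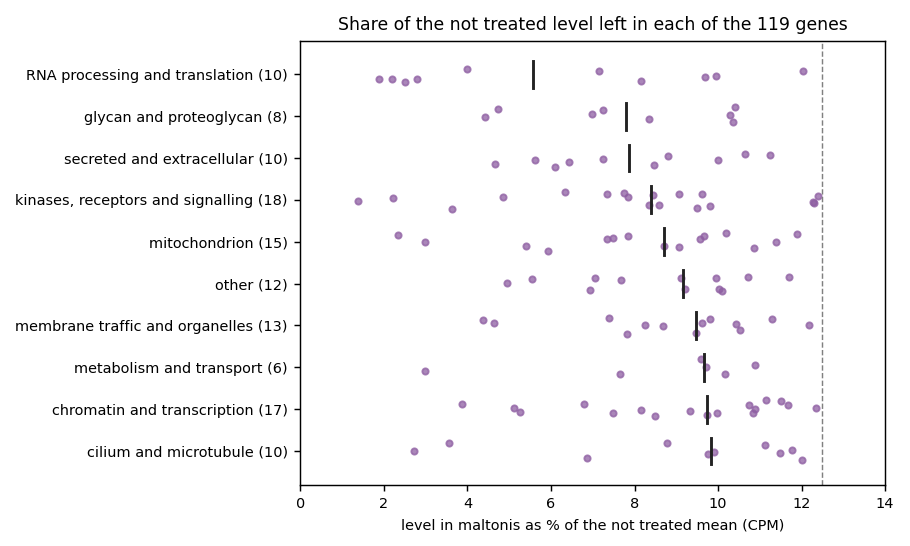
Level in maltonis as % of the not treated mean for each of the 119 genes, in rows by role with the number of genes in brackets; points are genes, spread vertically for legibility, black bars are medians and the dashed line is 12.5%. Medians run from 5.57% for RNA processing and translation to 9.83% for cilium and microtubule, and every role spans several percent.

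Whether these reductions extended to the complexes and pathways around the genes was examined in 20 lists of partner genes, none of which was itself in the set. Of 332 symbols, 320 passed the filter on low counts. By edgeR's quasi-likelihood test, at a Benjamini-Hochberg false discovery rate under 0.01, 126 partners were lower (39.4%) and 83 higher (25.9%) with maltonis, and 111 were not called. Over all 13209 genes tested, 32.1% were lower and 31.9% higher. The median log2 fold change was −0.094 for the partners and 0.014 for all genes. With scaling by library totals 105 partners were lower and 110 higher, beside 3652 lower and 4901 higher among all 13209 genes. Partner genes were therefore found in both directions, and the medians of the 20 lists lay between −0.69 and 0.25.

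The assembly factors of the large ribosomal subunit, around NLE1, were lower in 19 of 24 and higher in 0, with a median log2 fold change of −0.47. PES1, a subunit of the PeBoW complex, changed most, from 226, 225 and 212 CPM to 41.4, 37.3 and 37.9 CPM (log2 fold change −2.63, SE 0.0657). FTSJ3, an RNA methyltransferase of the same pathway, had the highest value of the list at −0.038 and was not called. Sterol synthesis after squalene, around CYP51A1, was lower in 8 of 11 and higher in 0, from SQLE, squalene epoxidase, at −1.32 to HSD17B7 at 0.24, which was not called but was higher with library totals, at 0.36. Nucleoporins, around NUP205, were lower in 17 of 28 and higher in 3. Among them TMEM48 (NDC1), a membrane nucleoporin, decreased from 230, 219 and 224 CPM to 63.3, 67.1 and 65.8 CPM, while the mRNA export factor RAE1 had a log2 fold change of 0.58. The elongation factor methyltransferase list, around METTL10, was lower in 4 of 5, with FAM86A at −1.14, and EEF1A1, the substrate, was at 0.10 and was not called.

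Chromatin and transcription lists were mixed. FACT, class I deacetylases and cohesin partners, around SSRP1 and HDAC8, were lower in 6 and higher in 4 of 16, and all lay between −0.61 (PDS5A) and 0.65 (STAG1). SUPT16H, the other subunit of FACT, had 404, 398 and 412 CPM without and 312, 295 and 297 CPM with maltonis, so that 74.5% was left while 10.7% of SSRP1 was left. Polycomb PRC1 genes, around CBX6, were lower in 5 and higher in 5 of 13, from BMI1 at −1.22 to PHC1 at 1.12. TFIIH, around MNAT1, was lower in 1 (the helicase ERCC2 at −0.42) and higher in 3 of 8 partners, with the kinase subunit CDK7 at 0.79. ERCC2 lost its call without maltonis replicate 2 and without not treated replicate 2, at −0.40 in both cases, and with library totals, at −0.30. Cofactor and PRMT5 partners of TTC5 were lower in 3 and higher in 1 of 8, with the damage kinase ATM highest at 0.78. tRNA splicing genes, around TSEN15, were lower in 5 and higher in 2 of 10, from the ligase complex helicase DDX1 at −1.87 to the phosphotransferase TRPT1 at 1.09.

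Mitochondrial partner lists also held genes called in both directions. Mitoribosome assembly and translation had 9 lower and 7 higher of 32, from the helicase DHX30 at −1.58 to the release factor MTRF1 at 1.18. Respiratory chain assembly had 14 lower and 13 higher of 42. BCS1L, the complex III assembly ATPase, had 80.3, 80.9 and 74.4 CPM and then 12.1, 11.7 and 11 CPM, while COX20 was at 1.00. Without maltonis replicate 1 or without maltonis replicate 3, COX20 lost its call, at 0.89 and 0.92. Iron-sulfur cluster genes, around BOLA3, had 6 lower and 8 higher of 18. NDUFAB1, the mitochondrial acyl carrier protein, was at −1.94, and BOLA1, of the same family as BOLA3, had 2.27, 2.33 and 1.71 CPM and then 9.08, 8.72 and 9.09 CPM. The family members BOLA1 and BOLA3 thus changed in opposite directions. Branched-chain amino acid breakdown, around BCAT2, had 2 lower and 7 higher of 15. The cytosolic aminotransferase BCAT1 decreased from 754, 753 and 778 CPM to 170, 180 and 185 CPM, and ALDH6A1 was at 1.28.

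Among SRC family genes and regulators, around CSK and MATK, 7 were lower and 4 higher of 15. LIME1, a transmembrane adaptor that binds CSK, decreased from 10.3, 7.07 and 7.37 CPM to 2.05, 1.05 and 0.81 CPM (log2 fold change −2.84, SE 0.282). Intraflagellar transport B, around TTC26, had 5 lower and 4 higher of 15, with CLUAP1 (IFT38) at −2.65 and IFT27 at 1.45. Tubulins other than TUBA1A were lower in 5 and higher in 2 of 10, from TUBA8 at −2.09 to TUBB3 at 0.94. ESCRT-III and VPS4 genes had 5 lower and 7 higher of 17, from VPS4A at −1.34 to CHMP2B at 0.92. COMMD genes and other genes of the Commander complex had 4 lower and 5 higher of 14, from COMMD1 at −2.18 to CCDC93 at 0.78. The EI24 and EPG5 autophagy list had 1 lower and 5 higher of 10, from ATG9A at −0.69 to WIPI1 at 1.6. Proteoglycan linker genes other than B4GALT7 were lower in 0 and higher in 3 of 9, from the xylosyltransferase XYLT1 at −0.29, which was not called, to the sulfate donor synthase PAPSS1 at 1.10. XYLT1 was called lower with the replicate number as a blocking term, at the same log2 fold change, and without maltonis replicate 1 or not treated replicate 2, at −0.37 in both cases.

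A further 6 lists were added after the full set was seen. The 20 main lists were not blind to these data either, since they too were built around genes of the set with earlier results known. Cardiolipin synthesis and TIM22 genes, around AGK and TAMM41, were lower in 9 and higher in 3 of 14, with a median log2 fold change of −1.13. TAZ, the cardiolipin-remodelling transacylase tafazzin, had 32.2, 31.9 and 27.4 CPM and then 7.62, 6.17 and 6.07 CPM, and C19orf52 (TIMM29), a TIM22 subunit, was at 1.05. O-mannosylation genes were lower in 11 and higher in 5 of 17, from the O-mannosyltransferase POMT2 at −1.39 to GMPPA at 0.89. BBSome and transition zone genes were lower in 12 and higher in 11 of 26, from the chaperonin-like MKKS at −2.34 to BBS4 at 1.77. CoREST genes, around RCOR2, were lower in 5 and higher in 1 of 10, and the demethylase KDM1A (LSD1) had 318, 303 and 291 CPM and then 76.4, 78.0 and 77.8 CPM, with the further scaffolds RCOR1 at −0.28 and RCOR3 at 0.55. FGF receptors and adaptors were lower in 4 and higher in 0 of 6, from the weakly expressed FGFR3 at −2.51 to FRS2 at 0.21, which was not called. Diphthamide genes were lower in 3 and higher in 1 of 7, from ATPBD4 (DPH6) at −2.42 to the substrate EEF2 at 0.67.

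**Figure D4:**
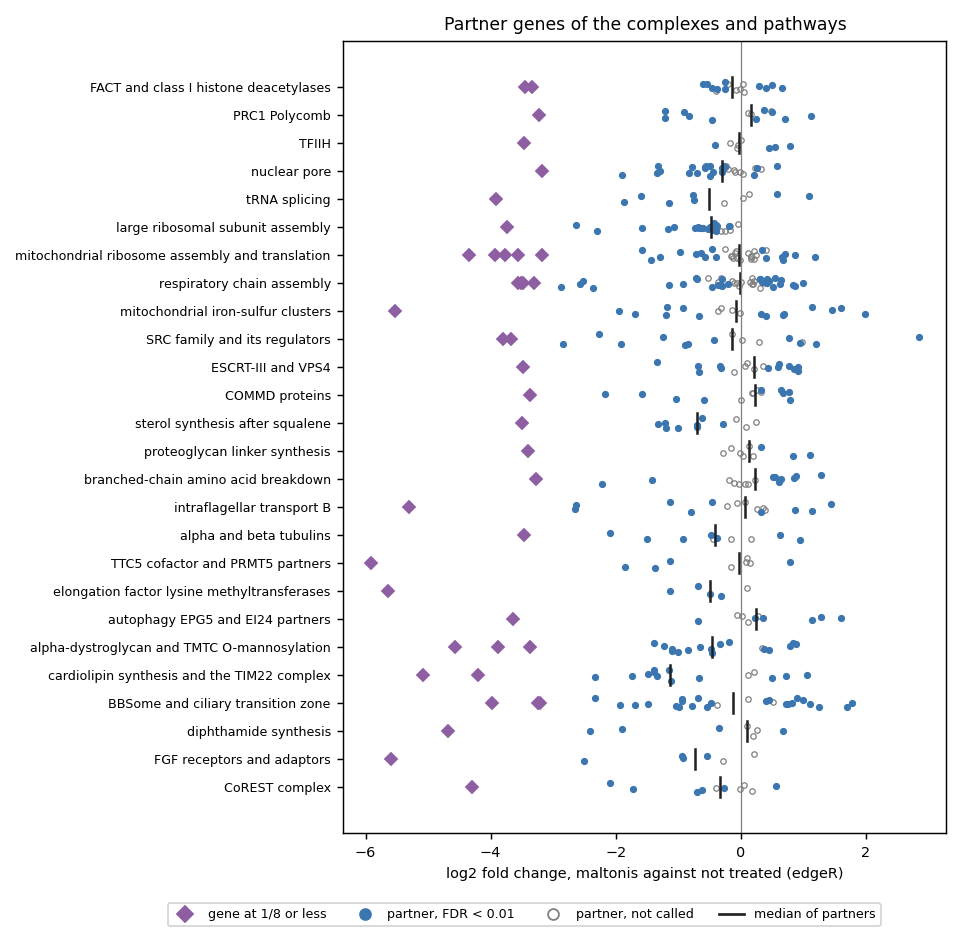
Log2 fold change, maltonis against not treated, for the partner genes of 26 lists in rows; blue points are partners with a false discovery rate under 0.01, open grey points are partners that were not called, black bars are medians and purple diamonds are the genes of the set that gave each list. The diamonds lie between −5.91 and −3.17, whereas list medians lie between −1.13 and 0.25, and the 332 partners of the 20 main lists include 126 lower and 83 higher.

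Genes that start close together on opposite strands often share a promoter region, and this position was not part of the selection. With GENCODE release 29 annotation on GRCh38, 15 of the 119 genes had a neighbour on the opposite strand whose start lay at most 1000 bases away, 16 neighbour symbols in all. In the pairs of ZGPAT, MMACHC, HIPK2, TMOD2, TUBA1A and ERAL1 the annotated genes overlap at their beginnings, with starts 24 to 727 bases apart. The other pairs lie head to head. The pair TMTC3 and CEP290, which start 80 bases apart, belonged to the set on both sides: CEP290, a transition zone scaffold, had 51.2, 47.3 and 53.2 CPM and then 5.89, 6.27 and 5.26 CPM. The other 14 neighbours were no members and 11 could be tested. Of the 11, 8 were lower and 0 higher in edgeR's quasi-likelihood test, with a median log2 fold change of −0.79. Exons of 5 of the 11 overlap those of the gene of the set on the opposite strand (CCDC163P, ARFRP1, LYSMD2, TUBA1C and C17orf63). Since the strand setting of the counting was not given in the sources used here, reads within these overlaps cannot be told apart. Without these 5, 4 of 6 neighbours were lower, with a median of −0.56. Among 1833 tested genes divergent from expressed genes outside the set, 27.0% were lower and 39.6% higher, with a median of 0.14. With scaling by library totals 7 neighbours were lower and 1 higher, and with replicate number entered as a blocking term 8 were lower and 1 higher, the latter in both cases being APBA3 beside MRPL54.

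The size of the change differed widely among neighbours. URGCP, a cell cycle gene that starts 27 bases from the ubiquitin-conjugating enzyme gene UBE2D4, had 52, 45.8 and 43.7 CPM and then 7.62, 6.92 and 6.77 CPM (log2 fold change −2.85, SE 0.0938, adjusted p of 5.69e-08 in edgeR's quasi-likelihood test). UBE2D4 itself had 14.5, 12.2 and 13.3 CPM and then 1.73, 1.33 and 1.62 CPM. CCDC163P beside MMACHC, a cobalamin processing gene, was at −3.09, and ARFRP1, a Golgi GTPase beside the transcriptional repressor ZGPAT, at −2.32. Lower but with most of their level left were TBXAS1 beside HIPK2, LYSMD2 beside TMOD2, TUBA1C beside TUBA1A, ANO8 beside GTPBP3 and ZNF207 beside C17orf75, with 55.5 to 86.5% left. ZNF207 lost its call with scaling by library totals. APBA3, C17orf63 beside ERAL1 and BOLA3-AS1 beside BOLA3 were not called, at 0.35, 0.21 and −0.13. BOLA3-AS1 starts 15 bases from BOLA3, and 98.9% of its level was left against 2.33% for BOLA3. MIR632, FGF21 and FKBP10 were too low to test.

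The windows around the starts of TMTC3 and UBE2D4 are shown because in both pairs the neighbouring gene was reduced as well. They come from RefSeq on GRCh38.p14, plus strand, at chr12:88142057-88142356 and chr7:43926186-43926485. Capitals mark the SP/KLF motif in the TMTC3 window and the metal response motif in the UBE2D4 window.
TMTC3: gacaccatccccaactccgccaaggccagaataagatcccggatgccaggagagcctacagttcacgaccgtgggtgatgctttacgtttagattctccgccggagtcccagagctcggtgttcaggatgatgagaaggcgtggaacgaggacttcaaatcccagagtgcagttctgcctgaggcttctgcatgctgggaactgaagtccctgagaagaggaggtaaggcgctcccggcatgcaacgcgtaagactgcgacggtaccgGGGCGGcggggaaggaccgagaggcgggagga
UBE2D4: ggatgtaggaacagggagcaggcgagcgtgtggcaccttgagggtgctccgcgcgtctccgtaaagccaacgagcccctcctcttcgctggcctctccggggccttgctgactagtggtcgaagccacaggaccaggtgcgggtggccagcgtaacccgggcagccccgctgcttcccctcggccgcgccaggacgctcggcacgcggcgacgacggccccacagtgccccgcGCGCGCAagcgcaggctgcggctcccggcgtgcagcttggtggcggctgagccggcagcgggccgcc
The UBE2D4 window had 73% GC and 36 CpG dinucleotides, and the TMTC3 window 59.3% GC and 21. Neither held a TATA, ETS or NRF1 motif as spelled above.

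**Figure D5:**
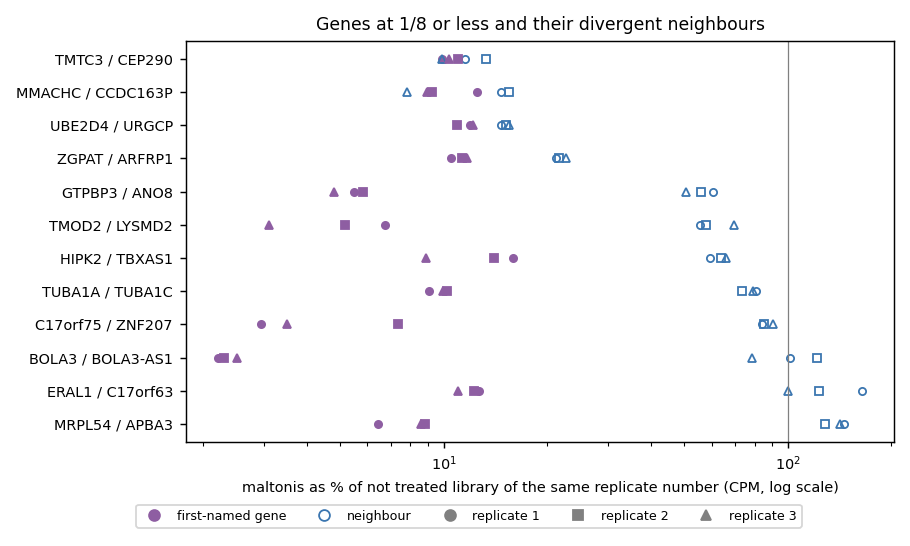
Maltonis library as % of the not treated library with the same replicate number, on a log axis, for genes of the set (filled purple) and their divergent neighbours (open blue), with circles, squares and triangles for replicates 1, 2 and 3; the vertical line is 100%. TMTC3 and CEP290 overlap near 11%, CCDC163P and URGCP lie at 12.6 and 15.1% and ARFRP1 at 21.8% on average, and the neighbours of BOLA3, ERAL1 and MRPL54 lie around or above 100%.

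Reads may be hard to assign where genes overlap, and the strand setting of the counting was not given in the sources used here. Exons of 20 of the 119 genes overlapped those of another symbol at 1 CPM or more, 16 of them with a gene on the opposite strand and 4 on the same strand. Several of the overlapping genes went the other way, with ZRANB3 opposite RAB3GAP1 at 301% of its not treated level, MAPK7 opposite MFAP4 at 233% and BRF2 opposite GPR124 at 180%. SPHK1 opposite PRPSAP1 and FNDC8 opposite NLE1 were at 1.58 and 10.9%, CCDC163P opposite MMACHC at 12.6%, ARFRP1 opposite ZGPAT at 21.8% and ZNF570 opposite ZNF569 at 25.5%. In all such pairs the reads within the overlap cannot be told apart from these counts, and the length of the overlap was not measured.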

How the data were processed

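RNA-seq was analysed in 3 not treated and 3 maltonis-treated NB4 libraries, grouped by their titles. The authors deposited HTSeq read counts per gene symbol for each library, not normalised, after alignment with TopHat and Bowtie2 to hg19 according to the submitters' processing notes. Versions, annotation and strand setting are not given in the sources used here. The tables list gene symbols only, with no row of unassigned reads.

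CPM were computed from library totals and the genes selected at 5 CPM and a ratio of 8. All 13209 genes that passed edgeR's filter on low counts were fitted with edgeR 4.0.16 (TMM, quasi-likelihood test, Benjamini-Hochberg adjustment), tested on simulated data, with DESeq2 1.42.0 and the other settings as alternatives. A partner or neighbour was called at a false discovery rate under 0.01. The SE of a log2 fold change was derived as its absolute value divided by the square root of the F statistic of the quasi-likelihood test. Members, lists and roles were chosen with earlier results of these data known. The 20 main lists were built around genes of the set, and 6 more were added after the members were seen. Values per library were named for the 12 members with the smallest share left, those that gave a list, the 5 most abundant and those next to the threshold, and for the lowest and highest gene of each list. Other members were named by role after their values were seen. Some genes that this rule would name are not reported here. Symbols were matched to GENCODE release 29 (107 members by current symbol, 12 by synonym), and promoter windows to RefSeq GRCh38.p14.

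Deviations from the group means of same-numbered libraries correlated across genes at 0.456, 0.170 and 0.248. The replicate numbers of the labels paired the libraries only in the percentages by replicate and in the replicate block. The main fit, which gave the calls in the results, did not include this pairing. Replicates of 1 cell line measure culture and technical spread only. Depth limits precision: a level of 3 counts is the floor, and intervals beyond replicate SD or SE were not given.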

Additional observations from a re-analysis of the deposited data

How the results depend on the processing

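The selection gave 142 genes with TMM and 144 with DESeq2 size factors, both holding all 119, 99 and 141 with a minimum of 10 and 2 CPM, 84 when every maltonis library had to be at an eighth or less of the lowest not treated library, and 121 from replicates 2 and 3 alone (114 shared). Leaving out each library in turn gave 116 to 126, of which 112 to 119 were among the 119. The 1428 alternative log2 fold changes of the 119 genes lay between −6.38 and −2.94. Their negative sign follows from the selection on the same libraries and is no separate support. Scaling by library totals moved the median log2 fold change of all genes from 0.014 to 0.13 and turned that of FTSJ3 from −0.038 to 0.081.

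Of the partner genes, 31 were lower and 6 higher with the study's minimum on the log2 fold change required as well, and 3 neighbours were lower. The shares over all genes at this criterion are not given, so these counts cannot be read as a lean of the partners or as its absence. With starts at most 300 bases apart 5 neighbours were lower. The share among other divergent genes at that distance is not given, so this count cannot be set against it. Among neighbours at up to 1000 bases whose exons do not overlap, 4 of 6 were lower, a setting added after the data were seen. Library totals and the replicate block each gave 1 neighbour called higher. With the replicate block 135 partners were lower and 98 higher, beside 4620 lower and 4602 higher among all 13209 genes. The block moved no other count of calls by over 1.5 times. Without each library in turn, 114 to 132 partners were lower and 64 to 93 higher, with 8 neighbours lower and 0 higher throughout. Over all genes these fits gave 3801 to 4457 lower and 3503 to 4336 higher. On the sense strand alone, 45.7% of the windows held the SP/KLF motif and 14.1% the metal response motif. The cause of these shifts was not tested, apart from the stricter criteria and the single strand, which admit fewer genes or matches by construction. Low counts in the maltonis libraries limit the most reduced genes, with as few as 2 reads in a library.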
